A study of Homo sapiens with 24 samples.

Results

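The genes described here are 44 members of the nuclear receptor family, other than the genes of TR2 and TR4, listed by symbol. No cut on measured values was used, but the list was written with earlier results of these data known. All 44 were found among the 20037 protein-coding genes of the RefSeq table for GRCh38. The study mapped TR4 and BCL11A in HUDEP-2 cells, an established line of human erythroid progenitors. It used CUT&RUN, in which a nuclease tethered by an antibody cuts out the bound DNA for sequencing. Its question was repression of γ-globin by TR4, with BCL11A, a known repressor of the same genes, as the comparison. Of 24 libraries, 21 used an antibody to a target, in 7 groups of 3, and 3 used IgG, with 1 per clone. TR4 bears C-terminal 3FLAG+3MYC tags in clone T, BCL11A bears 3HA+3MYC in clone B, and in clone TB both proteins are tagged. The groups were the MYC and TR4 antibodies in clone T, the TR4, HA and MYC antibodies in clone TB, and the MYC and HA antibodies in clone B. Each of the 3 genotypes is a single edited clone, so a difference between genotypes cannot be told apart from a difference between clones. All clones grew in the same medium with SCF, EPO, doxycycline and dexamethasone, the last a ligand of the glucocorticoid receptor (NR3C1), with no further treatment. Libraries of the MYC and TR4 antibodies in clone T and of the TR4 antibody in clone TB are called TR4-directed below (9 libraries). Those of the MYC and HA antibodies in clone B and of the HA antibody in clone TB are called BCL11A-directed (9 libraries). In clone TB the MYC antibody sees both proteins, and those libraries stood outside the comparison. Whether the 3 libraries of a group were grown separately is not given in the labels, and p-values therefore cover the spread between libraries, which may be technical.

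Nuclear receptors are transcription factors with a zinc-finger DNA-binding domain and a ligand-binding domain, and many sense steroid or thyroid hormones, retinoids, vitamin D, oxysterols or fatty acids. Many bind DNA as dimers on repeats of the core AGGTCA. The RXR proteins are dimer partners of the thyroid hormone, retinoic acid, vitamin D, PPAR and LXR receptors. TR4 is an orphan receptor of this family that binds direct repeats of the same core, so it can share DNA sites with other members of the family. BCL11A is a zinc-finger repressor whose known motif is TGACCA. In red cell precursors, the glucocorticoid receptor is known for sustaining expansion of immature cells.

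The sequences below are the 250 bases before the listed start of 6 receptors, read 5′ to 3′ on the strand of the gene, from the RefSeq promoter table (GRCh38.p14). The first 3 are shown because a peak lay at a gene end in all 18 compared libraries, and the other 3 because their gene ends differed between the targets. Capitals mark TGACCA on either strand. None of the 6 held AGGTCA on either strand, or the direct repeat of that core with 1 base between the copies.
NR1H2 (chr19:50376207-50376456, plus strand): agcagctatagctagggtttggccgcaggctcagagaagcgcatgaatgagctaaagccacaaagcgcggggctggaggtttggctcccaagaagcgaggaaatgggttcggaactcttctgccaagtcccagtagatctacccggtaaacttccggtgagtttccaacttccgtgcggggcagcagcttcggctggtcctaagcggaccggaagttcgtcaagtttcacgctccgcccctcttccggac
ESRRA (chr11:64305274-64305523, plus strand): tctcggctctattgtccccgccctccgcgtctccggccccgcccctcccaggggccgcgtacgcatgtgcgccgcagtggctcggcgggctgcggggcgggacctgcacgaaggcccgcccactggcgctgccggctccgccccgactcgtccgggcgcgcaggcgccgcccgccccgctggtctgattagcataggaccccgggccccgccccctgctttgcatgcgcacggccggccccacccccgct
NR2F1 (chr5:93582972-93583221, plus strand): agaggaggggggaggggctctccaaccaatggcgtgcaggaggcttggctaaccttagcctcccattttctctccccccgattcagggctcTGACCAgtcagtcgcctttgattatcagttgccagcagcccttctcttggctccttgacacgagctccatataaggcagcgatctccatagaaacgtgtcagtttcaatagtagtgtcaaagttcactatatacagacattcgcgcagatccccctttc
RXRA (chr9:134326205-134326454, plus strand): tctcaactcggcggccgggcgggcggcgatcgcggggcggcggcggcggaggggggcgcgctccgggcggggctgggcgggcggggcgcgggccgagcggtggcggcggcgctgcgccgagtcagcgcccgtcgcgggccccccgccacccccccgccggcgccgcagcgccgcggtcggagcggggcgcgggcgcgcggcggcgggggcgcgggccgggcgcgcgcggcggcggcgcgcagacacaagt
ESR2 (chr14:64338614-64338863, minus strand): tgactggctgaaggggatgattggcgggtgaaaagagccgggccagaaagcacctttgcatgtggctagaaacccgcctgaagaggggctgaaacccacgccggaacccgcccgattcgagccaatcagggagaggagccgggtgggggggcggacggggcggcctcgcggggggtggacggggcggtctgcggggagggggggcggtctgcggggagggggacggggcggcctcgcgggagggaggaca
PGR (chr11:101129814-101130063, minus strand): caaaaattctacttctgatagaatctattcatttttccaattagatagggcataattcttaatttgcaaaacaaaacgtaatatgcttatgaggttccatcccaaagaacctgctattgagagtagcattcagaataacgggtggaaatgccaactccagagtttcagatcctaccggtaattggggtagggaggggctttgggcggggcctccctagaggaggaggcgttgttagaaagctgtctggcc

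NR2F1, which encodes COUP-TFI, was the only gene of these 6 with a TGACCA, beginning at position -159 counted from the start. The stretch before RXRA was 89.2% G and C and held 59 CpG dinucleotides, and that before PGR was 43.6% G and C with 5 CpG. In ESRRA it was 78% G and C, in ESR2 71.2%, in NR1H2 57.6% and in NR2F1 52.4%.

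A receptor was counted as having a gene-end peak in a library when a peak of that library's list lay within 1 kb of either end of its gene record, so 3′ ends count as well as starts. Regions that held an IgG peak were dropped, which removed 17 regions of receptors and left 254. Among the 21 target libraries, list length ran from 4621 to 31432 peaks, and in all 7 groups replicate 3 had the fewest. List length is the only value near depth, which is unknown. BCL11A-directed lists were longer, at 12284 to 31432 peaks (median 25850) against 4621 to 14924 (median 11488), and they overlap in length. The part of list length in the results below was not tested beyond the settings given beside them. Peaks do not measure RNA. Of 10 erythroid marker genes, 8 had a gene-end peak in at least 4 of 18 libraries (not ALAS2 and EPB42), against 1 of 5 hepatocyte and 0 of 5 T cell markers.

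Fewer receptors had a TR4 peak than a BCL11A peak at a gene end in the full lists, which are longer for BCL11A. TR4-directed libraries had a gene-end peak at 4 to 12 of the 44 receptors (median 7). BCL11A-directed libraries had one at 11 to 21 (median 17), and the ranges overlap between 11 and 12. The MYC libraries of clone TB gave 16 to 17, and the IgG libraries count 0 by construction, since their regions were dropped. With a peak in at least 2 of 3 libraries, the MYC antibody in clone T marked 7 receptors (15.9%) where 27.3% of all genes were marked. The TR4 antibody marked the same number in clone T (15.9%, all genes 25.7%) and 9 in clone TB (20.5%, all genes 28.1%). For BCL11A, the MYC antibody in clone B marked 18 (40.9%, all genes 44.9%), HA in clone B 17 (38.6%, all genes 42.6%) and HA in clone TB 15 (34.1%, all genes 39.5%). The MYC antibody in clone TB marked 17 (38.6%, all genes 43.2%). With every list cut to the 4621 strongest peaks, these counts were 5 with MYC and 4 with TR4 in clone T, 4 with TR4 and 4 with MYC in clone TB, 5 with MYC and 7 with HA in clone B, and 6 with HA in clone TB. All genes then stood at 12.8% to 16.1%, so the gap between the targets was much smaller at equal list length. With the full lists, the share of receptors with a gene-end peak was below that of all genes in 21 of 21 target libraries. The libraries share the same 44 genes, so this order is a description. By group at equal list length, HA in clone B marked 15.9% of receptors (all genes 13.9%) and HA in clone TB 13.6% (all genes 12.8%). The other groups stayed below all genes there.

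**Figure D1:**
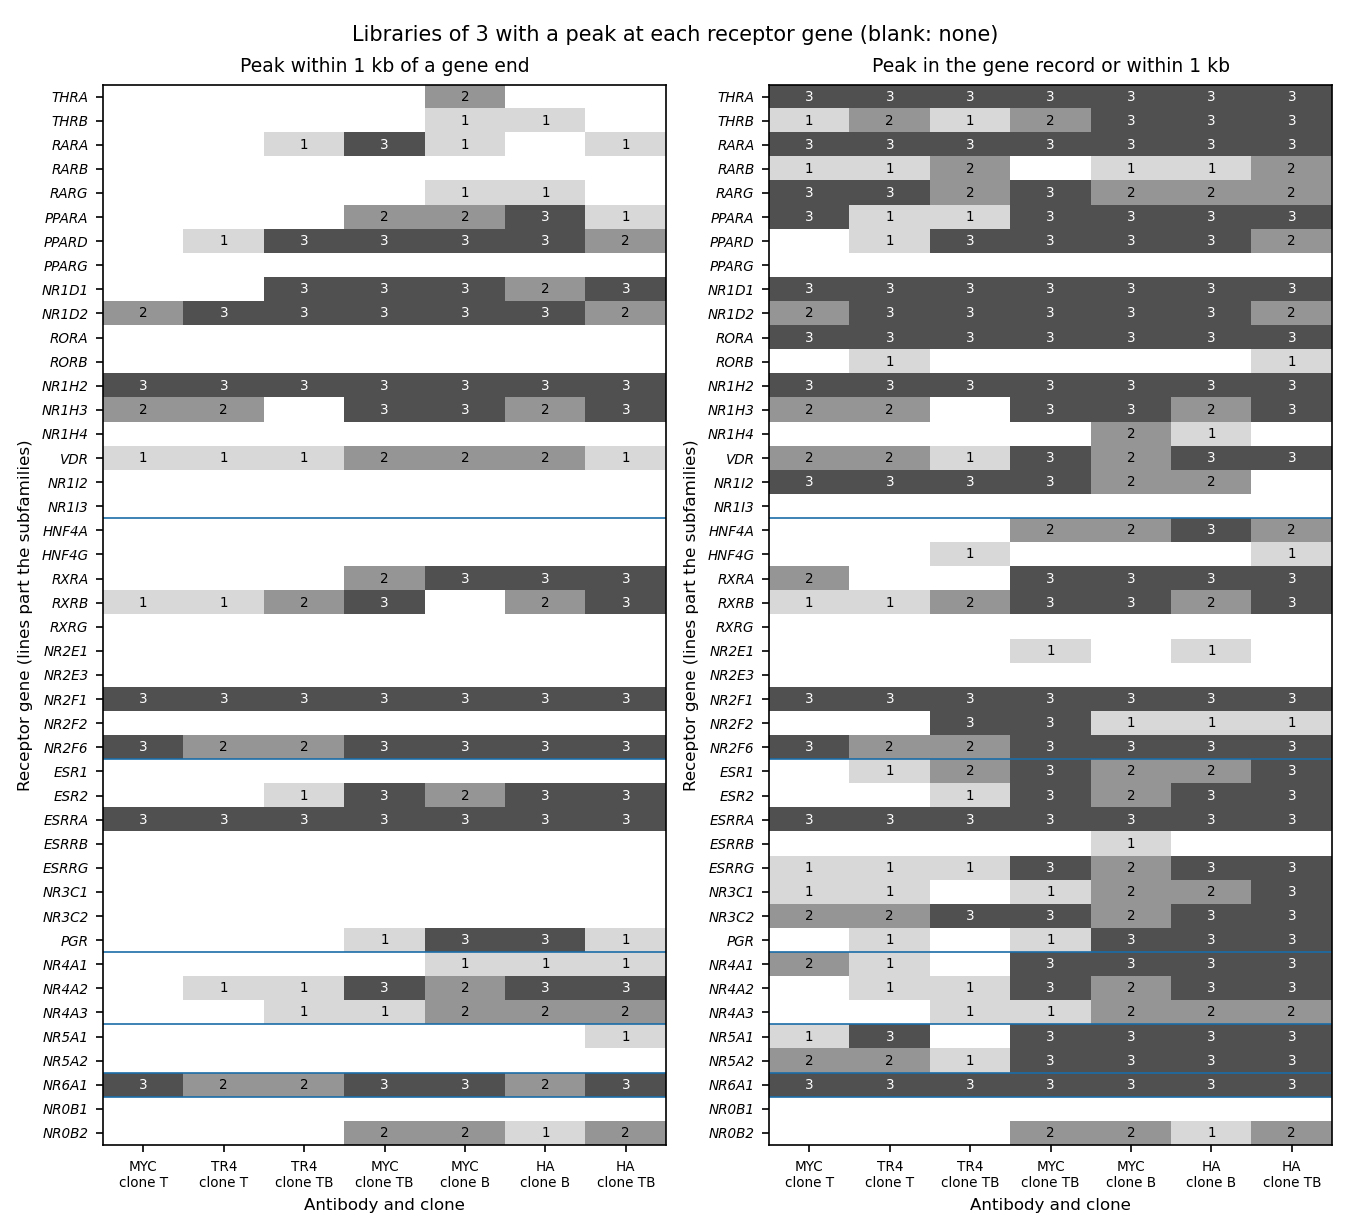
Number of libraries, of 3 in each antibody and clone (columns), with a peak at each of the 44 receptor genes (rows, ordered by subfamily NR1 to NR6 and NR0). The left panel counts peaks within 1 kb of a gene end and the right panel peaks anywhere in the record or within 1 kb of it. NR1H2, NR2F1 and ESRRA show 3 in every column on the left, and 20 receptors are blank there.

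**Figure D2:**
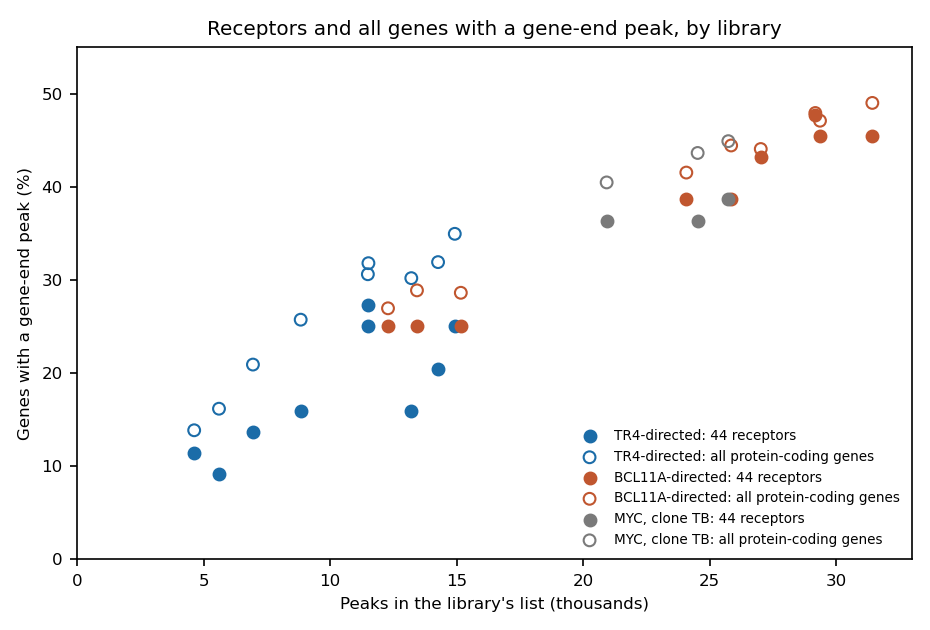
Percent of genes with a gene-end peak (vertical axis) against the number of peaks in the library's list (horizontal axis) for the 21 target libraries. Filled points are the 44 receptors and open points all protein-coding genes. The filled point lies below the open one in 21 of 21 libraries.

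At 3 receptors a gene-end peak was present in all 18 libraries, where 7.14% of all genes had one: NR1H2, which encodes the oxysterol receptor LXRβ, ESRRA, which encodes the orphan receptor ERRα, known for its role in mitochondrial gene expression, and NR2F1. Fold enrichments here are the authors' own value for each peak and were not tested between lists. At ESRRA (chromosome 11, 64305524 to 64316743) the region at the listed start, 64304992 to 64305635, had folds of 21.1 to 85.1 (median 57.5) in the 9 TR4-directed libraries. In the 9 BCL11A-directed libraries they were 10.5 to 25.6 (median 17.8), and the 2 ranges overlap. A second region, 64305796 to 64306422, with its summit 604 bases downstream of the start, had folds of 65.4 to 192 (median 101) in all 9 TR4-directed libraries. Only 6 of 9 BCL11A-directed libraries had a peak there, at 6.03 to 12.3 (median 7.83), and the 2 ranges do not overlap. This was the highest fold rank of any receptor region in the TR4-directed lists: on average the peak stood at the 98.5th percentile of its own list by fold, against the 45.8th percentile of the BCL11A-directed lists. The difference in libraries, 9 against 6, was not called (adjusted p = 0.323 by Fisher's exact test).

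NR1H2 (chromosome 19, 50376457 to 50383388) had 5 tested regions. At its listed start, 50376216 to 50376516, folds were alike in size, 11.98 to 35.3 (median 27.7) in the TR4-directed and 10.7 to 37.2 (median 26.2) in the BCL11A-directed libraries. Within the gene, 50376734 to 50377216 had folds of 9.25 to 53.5 (median 35.1) in 9 TR4-directed libraries and 4.71 to 14.9 (median 8.07) in 8 BCL11A-directed ones. At the 3′ end of NR1H2, the region 50383804 to 50384462 had folds of 48.8 to 122.6 (median 74.6) for TR4 and 6.25 to 25.1 (median 15.2) for BCL11A. Those ranges do not overlap. This region spans the listed start of POLD1, a DNA polymerase subunit gene, with its summit 39 bases from it, so it cannot be assigned to the receptor. At NR2F1 (chromosome 5, 93583222 to 93594611) the single tested region, 93582756 to 93583260, spans the listed start and lies over the sequence printed above. Its folds were 15.4 to 81.0 (median 27.6) for TR4 and 7.74 to 33.5 (median 19.7) for BCL11A. The MYC libraries of clone TB gave 50.2, 37.1 and 34.8.

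A further 3 receptors had a gene-end peak in 15 or 16 of the 18 libraries. NR2F6 (EAR2, an orphan relative of the COUP-TF proteins) had one in 7 TR4-directed and 9 BCL11A-directed libraries. Its region 17245602 to 17246309 on chromosome 19 had folds of 9.50 to 24.6 (median 17.3) and 20.0 to 51.7 (median 32.1), and ranked at the 97.7th percentile of the BCL11A-directed lists on average, the highest rank of a receptor region there. NR1D2, which encodes the circadian repressor REV-ERBβ, had a peak in 8 and 8 libraries, with folds at its start region of 4.95 to 8.61 and 7.78 to 15.4. NR6A1 (GCNF, a repressor known from germ cells) had one in 7 and 8, and the order turned over when only peaks with −log10 q of at least 5 were kept, to 2 fewer BCL11A-directed libraries, without passing the test.

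Each gene with a gene-end peak in at least 4 of 18 libraries was compared between targets by Fisher's exact test (two-sided) on library counts, with Benjamini-Hochberg adjustment over all 9584 genes tested and a threshold of 0.05. Of the 44 receptors, 18 (40.9%) could be tested, against 47.8% of all genes, and 24 had a peak in at least 1 of 18 libraries (57.6% of all genes). Of these 18 receptors, 3 were called with BCL11A more often, where 10.7% of all tested genes were, and 0 with TR4 more often, where 0.824% were. No receptor had an unadjusted p under 0.05 in the TR4 direction, and 8 had one in the BCL11A direction. The matching share of all genes is not given here. BCL11A-directed libraries were more numerous at 14 of the 18 (77.8%), where they were at 66.4% of all genes tested. TR4-directed ones were more numerous at 0, against 13.9% of all genes tested, and the numbers were equal at 4. The median difference was 4 libraries, against 2 over all genes tested. The 3 called are 16.7% of the 18 tested, a share that rests on few genes. Among all 44, 9 had such a peak in some BCL11A-directed library and in no TR4-directed one (14.6% of all genes), and 0 the reverse (1.67% of all genes).

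The called receptors were RXRA, ESR2 and PGR. RXRA, the dimer partner RXRα (chromosome 9, 134326455 to 134440585), had a gene-end peak in none of the 9 TR4-directed libraries and in each of the 9 BCL11A-directed ones (adjusted p = 0.00209 by Fisher's exact test). The folds in clone B were 7.22, 9.49 and 9.02 with MYC and 9.54, 12.95 and 7.87 with HA, and with HA in clone TB they were 10.4, 9.19 and 6.58. The targets do not overlap in libraries with a peak. ESR2, the oestrogen receptor ERβ (chromosome 14, 64226707 to 64338613), had one in 1 TR4-directed library, at a fold of 7.39, and in 8 BCL11A-directed libraries, at 5.21 to 16.1 (median 8.86; adjusted p = 0.0294 by Fisher's exact test). An end of ESR2 lies within 1 kb of an end of SYNE2. The single tested region of ESR2 had its summit 212 bases upstream of a listed ESR2 start and touched no protein-coding gene record. PGR, the progesterone receptor (chromosome 11, 101029624 to 101129813), had one in 0 against 7 libraries (Fisher's exact test with adjusted p = 0.0223). With MYC in clone B the folds were 12.9, 13.97 and 8.09, with HA in clone B 16.2, 15.5 and 12.4, and of the 3 HA libraries of clone TB only replicate 2 had a peak, at 6.31. PGR was the only receptor with a region left out at a gene end for an IgG peak, and it was called with such regions kept as well. PGR was not called with a window of 2 kb (adjusted p = 0.0783) or around listed starts (0.0809), and ESR2 was not called when every gene was tested (0.0614; Fisher's exact test for each).

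The calls also depended on the libraries used. Without the MYC libraries (6 against 6) no gene of 8605 was called, and the adjusted p was 0.0584 for RXRA, 0.137 for ESR2 and 0.296 for PGR (Fisher's exact test; the ranges over all settings were 0.00157 to 0.0584, 0.00552 to 0.137 and 0.00549 to 0.296). RXRA still had a peak in 6 libraries against 0, the fullest separation that 6 against 6 allows, with the smallest p of that design (0.00217, exact), so its size was not reduced. The MYC antibody may also bind the cells' own MYC protein, which was not tested. Without the third replicates RXRA alone was called. With every list cut to its 4621 strongest peaks, 6 receptors could be tested and NR4A2 was the 1 called, with BCL11A more often. At that length 14.5% of all genes were called with BCL11A more often and 22.3% with TR4 more often, so the balance of calls over all genes turned over. The number called was 5 without replicate 1 or 2 of TR4 in clone TB, replicate 2 of TR4 in clone T, or replicate 3 of HA in clone TB. It was 6 without replicate 3 of MYC or of HA in clone B. In these 6 settings the share of all genes called rose as well, from 10.7% to between 17.6% and 19.6%.

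The other 9 tested receptors were not called. Of the fatty acid sensors, PPARA (PPARα) had a gene-end peak in 6 BCL11A-directed libraries and in 0 TR4-directed ones (adjusted p = 0.0557 by Fisher's exact test, range over settings 0.00201 to 0.296), and PPARD (PPARδ) in 4 TR4-directed and 8 BCL11A-directed ones. NR1H3, the oxysterol receptor LXRα, had one in 4 and 8, but 2 of its 3 tested regions span listed starts of MADD, with summits 23 and 170 bases from them. NR1D1, the circadian repressor REV-ERBα, had one in 3 and 8. All 3 of the TR4-directed libraries were those of the TR4 antibody in clone TB, with folds of 7.88, 8.45 and 6.59, and none of the 6 of clone T had it. This split depends on the window, since with 2 kb the difference at NR1D1 was 0. Its region 40098954 to 40099535, with the summit 1313 bases from the start, had a peak in all 18 libraries. Of the NR4A immediate-early orphan receptors, NR4A2 (NURR1) had one in 2 and 8 libraries (adjusted p = 0.0790 by Fisher's exact test, range over settings 0.0173 to 0.296), and NR4A3 (NOR1) in 1 and 6. VDR, the vitamin D receptor, had one in 3 and 5, RXRB (RXRβ) in 4 and 5, and NR0B2, the repressor SHP that has no DNA-binding domain, in 0 and 5. RXRB lies in the major histocompatibility region, of which the alternate contigs of chromosome 6 hold copies, with 28 to 269 peaks per target library, so reads there may have been split. Another gene ends within 1 kb at PPARA (CDPF1), NR1H2 (POLD1), NR1H3 (ACP2 and MADD), RXRB (COL11A2 and SLC39A7), ESR2 (SYNE2) and ESRRA (CATSPERZ and TRMT112), which makes 6 of the 18. The tested gene-end region of PPARA spans a listed start of PPARA itself. Outside these 6, the start region of NR1D2 also touches the record of NKIRAS1. The only tested region of NR0B2 touches the record of NUDC and not that of NR0B2.

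By subfamily, 4 or more of the 18 libraries had a gene-end peak at 7 of 18 NR1 genes, 4 of 10 NR2, 3 of 8 NR3, 2 of 3 NR4, 0 of 2 NR5, the single NR6 gene and 1 of 2 NR0 genes. No gene-end peak was found in any of the 21 target libraries at 20 receptors, where 41.6% of all genes had none. They are RARB, PPARG, RORA, RORB, NR1H4, NR1I2, NR1I3, HNF4A, HNF4G, RXRG, NR2E1, NR2E3, NR2F2, ESR1, ESRRB, ESRRG, NR3C1, NR3C2, NR5A2 and NR0B1. The glucocorticoid receptor gene NR3C1, whose ligand was in the medium, was among them. Inside its record, 287 bases from one of its 7 listed starts, 143402929 to 143403074 on chromosome 5 was marked in 5 BCL11A-directed libraries and in 0 TR4-directed ones, at folds of 5.63 to 9.78, and was not called (adjusted p = 0.0731 by Fisher's exact test). It was called without the third replicates, or without replicate 3 of HA in clone TB, replicate 2 or 3 of MYC in clone B or replicate 3 of HA in clone B. Each of these settings left out BCL11A-directed libraries that lacked the peak, so the calls are no separate support. In them 29.4% to 37.3% of all regions were called toward BCL11A, against 25.6% in the main test. The other tested region of NR3C1 lay 357 bases from another listed start, in 2 and 3 libraries. Both starts lie more than 1 kb from the ends of the record. THRA, THRB, RARA, RARG, NR4A1 and NR5A1 had such a peak in 1 to 3 of the 18 libraries and were too few to test.

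Peaks inside the gene changed this picture for the long receptors. Counting peaks anywhere in the record or within 1 kb of it, 34 of 44 receptors could be tested, against 58.7% of all genes. The number with no peak in any target library was 5: PPARG, NR1I3, RXRG, NR2E3 and NR0B1. How many of all genes had none in the record is not given here. The 10 receptors with no gene-end peak but a record peak in at least 4 libraries had a median length of 262070.5 bases, against 28033 bases for the 18 with gene-end peaks. Longer records hold more room for a peak, which was not corrected for. A record peak in all 18 libraries was found at 8 receptors, THRA, RARA, NR1D1, RORA, NR1H2, NR2F1, ESRRA and NR6A1, where 8.80% of all genes had one. With Fisher's exact test over 11752 genes, 4 receptors were called with BCL11A more often (background 10.9%) and 0 with TR4 more often (background 0.553%). Besides RXRA (2 against 9 libraries, adjusted p = 0.0226), ESR2 (1 against 8, adjusted p = 0.0294) and PGR (1 against 9, adjusted p = 0.00737), this was HNF4A, a receptor known from liver (0 against 7, Fisher's exact test with adjusted p = 0.0226). HNF4A had 2 tested regions, in 4 and 5 BCL11A-directed libraries, and neither was called by itself. The only receptor with an unadjusted p under 0.05 toward TR4 was NR1I2, the xenobiotic receptor PXR (9 against 4, Fisher's exact test with adjusted p = 0.12). Toward BCL11A, 11 of the 34 had one, and the matching shares of all genes are not given here.

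The record calls also moved with the settings. With −log10 q of at least 5 the number with BCL11A more often was 12 (18% of all genes), and without the third replicates it was 2, HNF4A and PGR (6.40% of all genes). With equal lists of 4621 peaks it was 4 and RARG and NR1I2 were called with TR4 more often, where 15.6% and 20.6% of all genes were called in the 2 directions. Leaving out replicate 2 of TR4 in clone TB or replicate 2 of TR4 in clone T gave 7 (17.8% and 18.9% of all genes), and leaving out replicate 3 of MYC in clone B gave 8 (19% of all genes).

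Single regions showed where in these genes the peaks lay. Of the 254 regions, 95 had a peak in at least 4 of 18 libraries and were tested the same way over 24485 regions. Of these 95, 27 were called with BCL11A more often (28.4%, background 25.6%) and 2 with TR4 more often (2.11%, background 2.00%), so the share in each direction was near that of all regions. The 27 fell in 15 of the 33 receptors with a tested region. Away from a gene end lay 23 of the 27, as did 66 of the 95 tested regions. A peak in all 18 libraries was found at 7 regions (background 5.93%): those at ESRRA and NR1H2 ends given above with 64317459 to 64317796 at the 3′ end of ESRRA, NR2F1, NR1D1 40098954 to 40099535 and RARA 40318054 to 40318318. The ESRRA 3′ region spans the listed start of TRMT112. The RARA region spans a listed start of the retinoic acid receptor RARα inside the record, with folds of 5.04 to 18.1 for TR4 and 10.6 to 50.5 for BCL11A.

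**Figure D3:**
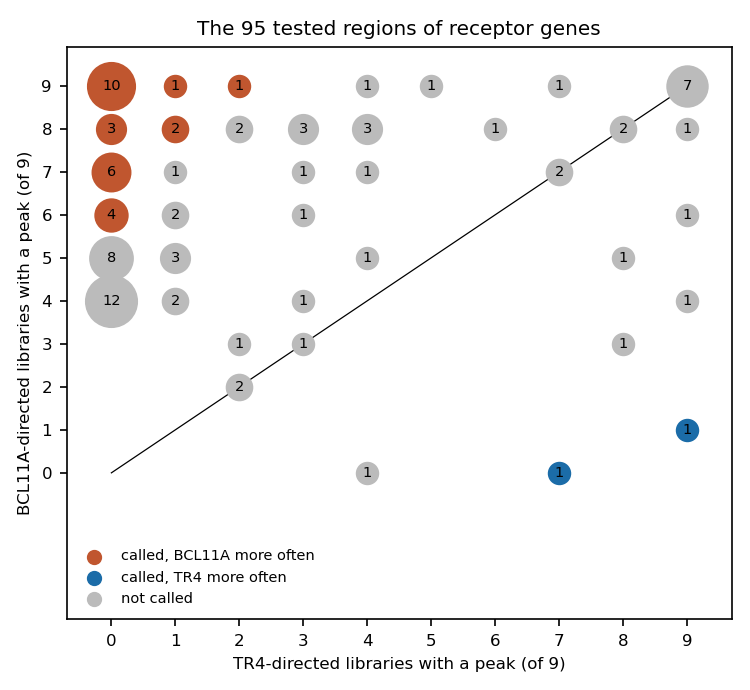
Each circle gives the number of receptor regions (printed inside) with a peak in that many of the 9 TR4-directed libraries (horizontal) and 9 BCL11A-directed libraries (vertical), over the 95 tested regions. Coloured circles were called by Fisher's exact test at an adjusted p of 0.05. At 0 TR4-directed and 9 BCL11A-directed libraries there are 10 regions, and 7 lie at 9 and 9.

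The TR4 calls were at RORA and NR1H2. RORA encodes RORα, an orphan receptor that binds an AGGTCA core as a monomer. In its 741019-base record on chromosome 15, the region 60585802 to 60586044, 41606 bases downstream of the listed start, had a peak in 9 TR4-directed libraries and 1 BCL11A-directed library (adjusted p = 0.00394, Fisher's exact test). Folds were 88.9, 105 and 45.1 with MYC in clone T, 59.9, 75.2 and 19.8 with TR4 in clone T, and 60.2, 58.1 and 28.6 with TR4 in clone TB. With MYC in that clone the folds were 51.4, 62.0 and 53.0, and the lone BCL11A-directed peak, in replicate 2 of MYC in clone B, 8.70. All 12 libraries that can see TR4 had the peak, and 8 of 9 of the others did not. This region was called toward TR4 under every setting run. NR1H2 50377265 to 50377463, with its summit 935 bases downstream of the start, had a peak in 7 against 0 libraries (Fisher's exact test with adjusted p = 0.0130), with folds of 11.1 to 19.5 (median 17.9). It was not called without the MYC libraries. Both regions lie outside the printed windows. This NR1H2 region and the regions of RARG, THRB, NR3C1, HNF4A and THRA that were not in all 18 libraries nor among the strongest calls are named after their values were seen, as are the second regions of ESRRA and NR1H2.

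RORA also held a region called the other way. At 60615141 to 60615657, 12245 bases from the listed start, 1 TR4-directed library had a peak (fold 7.83) and 9 BCL11A-directed ones did, at 8.68 to 34.1 (median 19.6; adjusted p = 0.00394 by Fisher's exact test). At equal list length, 30 receptor regions could be tested, of which 7 were called in each direction, where all regions gave 19.6% toward BCL11A and 21.1% toward TR4. The TR4 calls then were RORA 60585802, ESRRA 64305796, 2 regions in NR1H2, and 1 each in RARG, THRA and NR1I2, as numbered by their start. At the full lists, RARG 53220910 to 53221260 had 8 against 3 libraries, with TR4 folds of 7.17 to 29.8 (median 24.1) and BCL11A folds of 5.25 to 6.66, and was not called (adjusted p = 0.115 by Fisher's exact test). RARG encodes the retinoic acid receptor RARγ.

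**Figure D4:**
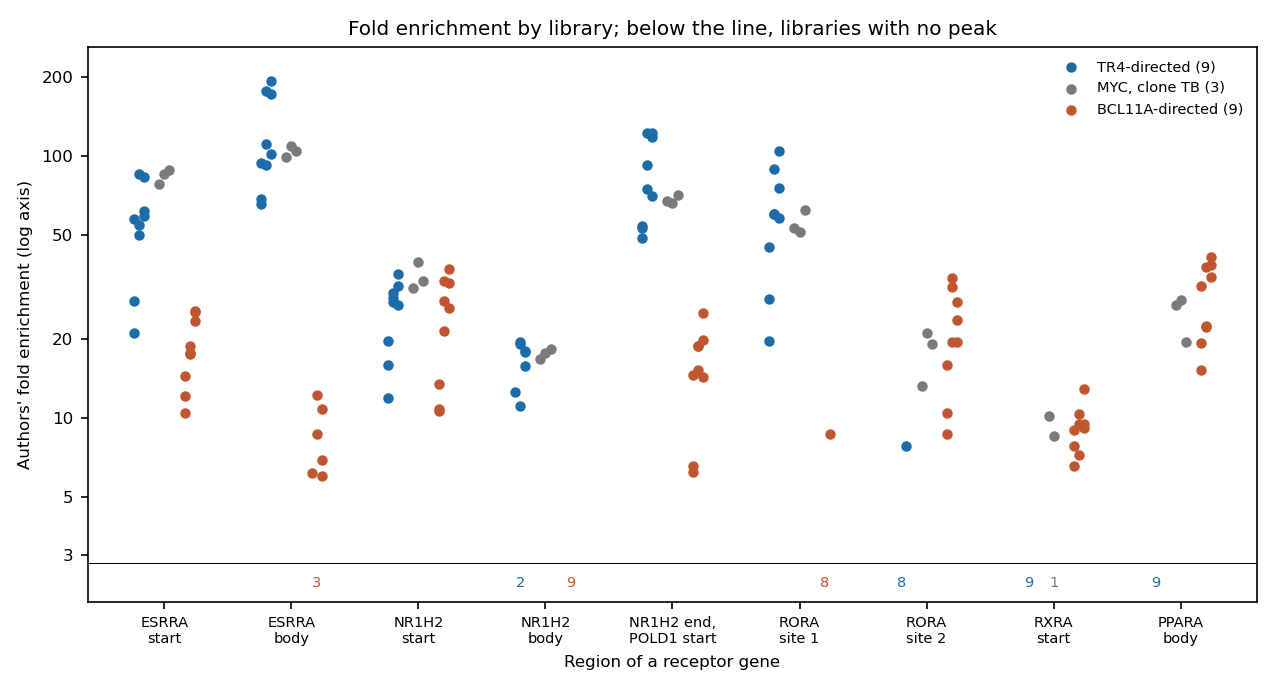
The authors' fold enrichment (log axis) in each library at 9 receptor regions, for 9 TR4-directed, 3 MYC clone TB and 9 BCL11A-directed libraries. Numbers below the line count libraries with no peak. TR4-directed points at ESRRA body lie at 65.4 to 192, above the BCL11A-directed points at 6.03 to 12.3, while at NR1H2 start the ranges overlap. RORA site 1 is the region called toward TR4 and site 2 the region called toward BCL11A.

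Toward BCL11A, 10 regions had a peak in all 9 BCL11A-directed libraries and in 0 TR4-directed ones (adjusted p = 0.000938 by Fisher's exact test for each), as did 1007 of all 24485 regions. RXRA held 3 of them and the most calls of any receptor, 6 of its 11 tested regions. Besides its start region 134325909 to 134326451 these were 134338454 to 134339032 (folds 7.40 to 20.9, median 12.4) and 134360985 to 134361194 (9.19 to 21.3, median 10.4). TR4-directed peaks lay in only 1 of the 11, in 2 MYC libraries of clone T, at folds of 4.18 and 6.07. The highest folds of the 10 regions were at PPARA 46241431 to 46241891 on chromosome 22, near the upper end of the record. They were 37.6, 41.1 and 19.3 with MYC in clone B, 22.6, 38.4 and 15.3 with HA in clone B, and 22.3, 34.7 and 32 with HA in clone TB. The region stood at the 96.2th percentile of those lists by fold on average. NR4A1, which encodes the immediate-early receptor NUR77, had 2 of the 10, 52024897 to 52025056 (folds 6.67 to 15.1) and 52032952 to 52033258 (4.28 to 18.4), among 7 tested regions with 3 calls. The thyroid hormone receptor gene THRA had 40071460 to 40071770 (7.98 to 14.2) and RARA 40341169 to 40341449 (6.70 to 17.4), the latter 866 bases upstream of a listed start. NR2F6 17235530 to 17235957 and NR5A2 200150761 to 200150955, in the gene of the liver receptor homologue LRH-1, completed them. At equal list length, the PPARA region, RXRA 134338454 and NR4A1 52032952 were called. NR5A2 and RXRA 134360985 were not (adjusted p = 0.129 and 0.0592, Fisher's exact test; ranges over settings 0.000715 to 0.129 and 0.000715 to 0.0592), and the other 5 gave no value in that setting.

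In THRA, regions with unlike library counts lay side by side. In the stretch of record from 40068920 to 40073314, 6 regions were tested, 2 were called toward BCL11A and none toward TR4. The region 40071129 to 40071270, beside the called one, had a peak in 8 TR4-directed libraries (folds 7.91 to 24.8, median 17.2) and 5 BCL11A-directed ones (8.24 to 17.1, median 11.1). THRB, the paralogue of THRA, had 3 of its 4 tested regions called toward BCL11A, 142479 to 234537 bases from its nearest listed start.

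**Figure D5:**
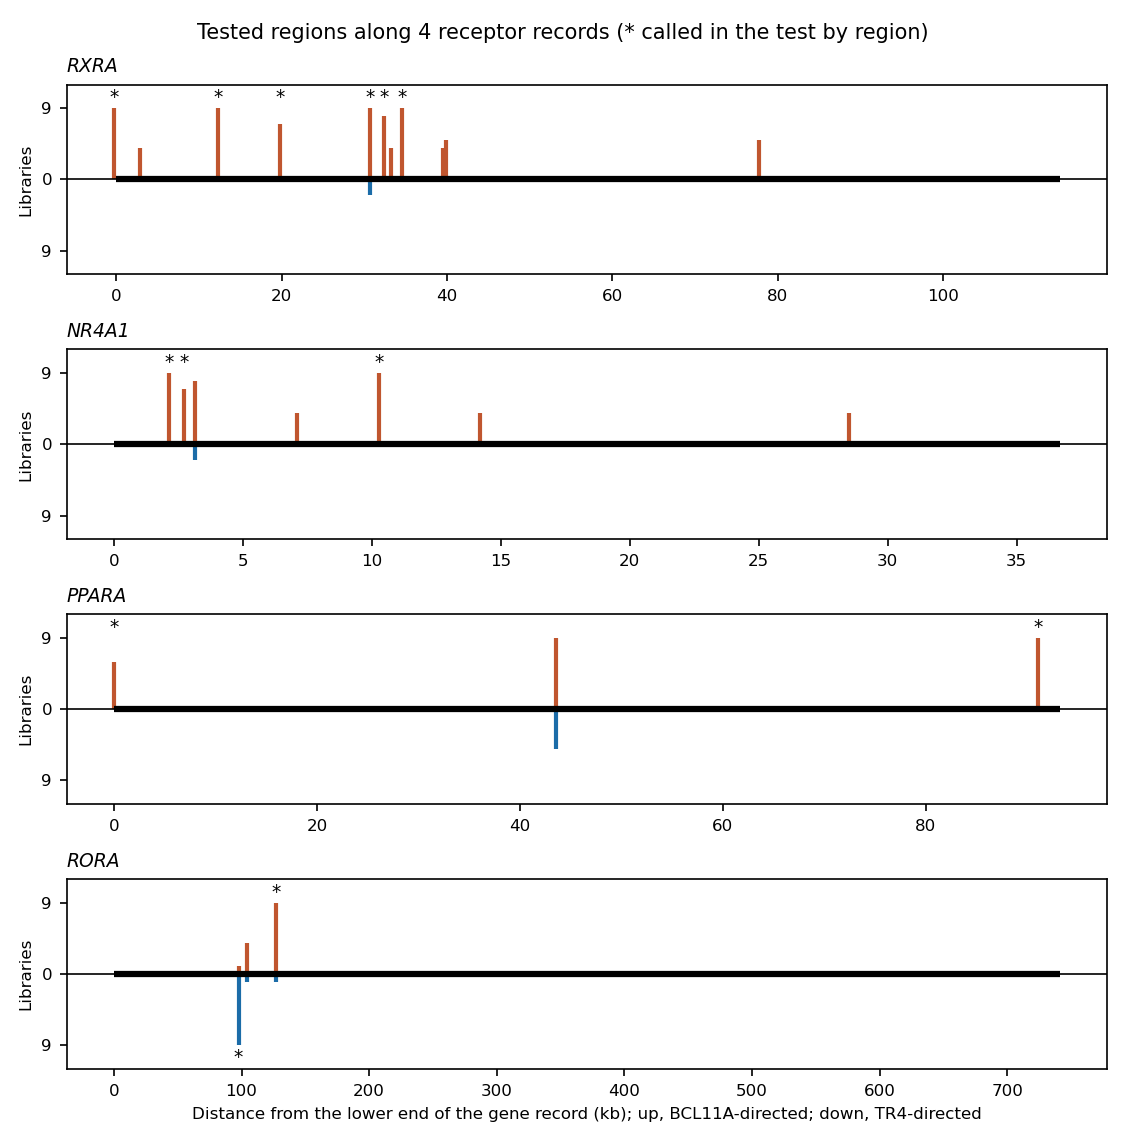
Tested regions along the records of RXRA, NR4A1, PPARA and RORA, by distance from the lower end of the record (kb). Bars upward give BCL11A-directed and bars downward TR4-directed libraries with a peak, out of 9 each, and asterisks mark calls in the test by region. Of 11 bars upward in RXRA, 6 carry an asterisk, and in RORA an asterisk stands below the line at 1 region.

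The region calls also changed with the libraries used. Without the MYC libraries 13 regions were called toward BCL11A (background 8.31%) and 1, in RORA, toward TR4. Without replicate 3 of HA in clone B the number toward BCL11A was 41 of 93 tested, where 37.3% of all regions were called. Without replicate 2 of MYC or of HA in clone B the number toward TR4 was 4 (2.97% and 2.90% of all regions).

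Within clone TB the 2 proteins could be compared in the same cells, but 3 libraries against 3 cannot go below p = 0.1 in Fisher's exact test. With the TR4 and HA antibodies, RXRA had a gene-end peak in 0 and 3 libraries, NR1H3 in 0 and 3, ESR2 in 1 and 3, NR4A2 in 1 and 3, NR0B2 in 0 and 2 and PGR in 0 and 1. PPARD had one in 3 and 2 and NR1D1 in 3 and 3. With the TR4 antibody in clones T and TB, NR1D1 stood at 0 and 3, PPARD at 1 and 3 and NR1H3 at 2 and 0. For NR1D1 this depends on the window of 1 kb, since a region farther inside its record had a peak in all 18 libraries. NR2F2, which encodes COUP-TFII, is named after its values were seen. Its region 96330500 to 96330729 on chromosome 15, inside the record, was split by clone like the gene-end count of NR1D1. All 3 TR4 libraries of clone TB had it, at folds of 15.2, 14.3 and 13.8, as did the 3 MYC libraries of clone TB, at 25.3, 22.6 and 25.5. None of the 6 libraries of clone T did, and 3 BCL11A-directed libraries had it at 5.95, 7.98 and 9.05.

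The promoter table held 39 of the 44 receptors, and VDR, HNF4G, NR2F6, NR4A2 and NR0B2 were missing from it. In windows of 250 bases before each listed start, AGGTCA stood on either strand in 15 of 94 receptor windows (15.96%), from 11 genes, and in 10.5% of the 22183 windows of all genes. The direct repeat with 1 base between the cores was in 0 receptor windows and in 3 of all windows. TGACCA was in 11 receptor windows (11.7%), from 8 genes, and in 7.96% of all windows. No site can be counted as both AGGTCA and TGACCA on either strand. These counts are a description, windows of alternative starts of a gene overlap, and a match is not a bound site. Receptors with a gene-end peak in at least 4 libraries had a median of 63.3% G and C in these windows (14 genes) and those with none 52.8% (19 genes). Over all genes the medians were 64.8% and 56%, so the receptors followed the same order.

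Genes that act with the receptors were counted at their ends by list. A gene beyond the naming rule is named where a count is small or was chosen after its values were seen. The background for calls toward BCL11A is 10.7% of all genes tested, and the counts below rest on few genes. Of 9 corepressor genes 6 were tested and 1, NRIP1 (RIP140), was called toward BCL11A, with 1 against 8 libraries (Fisher's exact test with adjusted p = 0.0294). NCOR1, which encodes a corepressor that unliganded receptors recruit, had a gene-end peak in 7 and 9 libraries, and GPS2, of the same complex, in 9 and 4. Of 21 coactivator genes 17 were tested and 2 were called toward BCL11A, NCOA6 (0 against 7) and KAT2B (0 against 8), while NCOA4, CARM1, PRMT1 and BRD8 had a peak in all 18. Of 19 genes of ligand metabolism and carriers 2 were tested, the retinol dehydrogenase genes RDH10 (0 against 8) and RDH11 (1 against 9), and both were called toward BCL11A. No peak was found at 14 of these 19. Of 4 chaperone genes 4 were tested and 0 called. Of 12 classic receptor targets 8 were tested and 3 called toward BCL11A: PDK4 (0 against 7), CPT1A (2 against 9) and BMAL1 (0 against 8), which encode a regulator of pyruvate oxidation, a fatty acid transport enzyme and a circadian activator. FKBP5 and PER1, known glucocorticoid targets, had a peak in 7 and 9 and in 8 and 9 libraries. The erythroid markers GATA1, SLC4A1 and HBB were among those called toward BCL11A. No hepatocyte or T cell marker was called, but only 1 of 5 and 0 of 5 could be tested, so this absence is no contrast between cell types. No gene of any list was called toward TR4, against the background of 0.824%.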

How the data were processed

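CUT&RUN peak lists of 24 libraries were analysed, 1 deposited list per library, so the authors called peaks library by library. The tools named in the submitters' processing notes are MACS2 2.1.4, SAMtools, Picard, Bowtie2 and Trimmomatic, with build GRCh38 and no roles. Each deposited peak carries a fold enrichment (a linear ratio) and −log10 p and q values from the authors' caller, with the summit offset as another deposited value. Folds describe peaks within a list. Reads were not analysed, so no interval that needs depth is given.

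Peaks were merged across lists where they shared at least 1 base (79570 regions), and 7349 that held a peak of an IgG library were dropped. Gene ends came from the RefSeq table (GRCh38.p14), which gives no strand or exons; starts and strands came from the promoter table, so exon, intron and UTR positions are not given. Fisher's exact test (two-sided; SciPy 1.17.1, Python 3.11.15, pandas 2.3.3, numpy 2.4.6, figures with matplotlib 3.10.9) compared 9 with 9 libraries for each gene or region found in 4 or more of the 18, with Benjamini-Hochberg adjustment at 0.05. No 2 libraries were alike enough to be 1 library (highest Jaccard index 0.617).

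Tested on simulated lists for the comparison of gene ends (9600 genes, 200 changed), the test recovered 94.5% of changed genes, none in the wrong direction. The changed genes were simulated with nearly complete separation of the targets, in libraries drawn independently. This recovery therefore does not give the power for smaller differences or for correlated libraries. The members and gene lists were chosen with earlier results of these data known. Named with their values were receptors with a gene-end peak in at least 4 of 18 libraries or called in a test, folds for 12 of these, the 12 called regions of lowest p, regions in all 18 libraries, and up to 3 members of a list; others are named after their values were seen or because a count required it. The promoter sequences are those of the receptors among the 12 with peaks in all 18 libraries or called, with PGR added. Alternatives were the peak threshold, equal list length, windows of 500 bases, 2 kb or around listed starts, the summit, the minimum, IgG regions, MYC libraries, replicate 3 of every group, a replicate block and leaving out each library. The setting on listed starts and that without replicate 3 of every group were chosen after seeing the data. The result of 1 marker gene is not reported here.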

Additional observations from a re-analysis of the deposited data

Results flagged for a closer look

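The MYC antibody in clone TB, which stood outside the comparison of targets, marked a region beside RARA, the gene of the retinoic acid receptor RARα, just beyond the upper end of its record, at 40358593 to 40358731 on chromosome 17. It had a peak in 3 of 3 of these libraries, with folds of 11.2, 9.11 and 15.5, and no IgG peak. Of the other libraries, 1 TR4-directed and 2 BCL11A-directed ones had it, too few to be tested. The gene-end count of RARA, 3 of 3 in this group, rests on the same region.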

How the results depend on the processing

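Gene-end calls toward BCL11A were 3, and became 1 with equal list length, 0 without the MYC libraries, 1 without the third replicates, and 3 to 6 over the 18 settings without 1 library. Record calls were 4, and became 12 with −log10 q of at least 5, 2 without the third replicates and 4 to 8 without 1 library; toward TR4 they became 2 with equal list length. Region calls toward BCL11A were 27, and became 7 with equal list length and 13 without the MYC libraries. They became 34 without the third replicates (29.4% of all regions) and 30 to 41 without 1 library. Toward TR4 the region calls were 2, and became 7, 1, 2 and 2 to 4 in the same order. The share of all genes or regions called toward BCL11A moved as well. Without 1 library it was 10.8% to 19.6% at gene ends, 11.1% to 19.1% in records and 28.2% to 37.3% among regions. The main tests gave 10.7%, 10.9% and 25.6%. Receptors marked by a group became 11 (TR4 in clone T) and 14 (TR4 in clone TB) when 1 library was enough. When all 3 libraries were needed, they became 4 (TR4 in clone T) and 11 each for MYC and HA in clone B. A looser or stricter cut moves the share of all genes as well, which is not given here for these cuts. With equal list length the receptors marked became 4 for TR4 in clone T, TR4 in clone TB and MYC in clone TB. They became 5 for MYC in clone B, 7 for HA in clone B and 6 for HA in clone TB. NR6A1 turned to 2 fewer BCL11A-directed than TR4-directed libraries (-2) with −log10 q of at least 5, without passing the test. The cause of these changes was not tested, beyond fewer peaks or libraries in the shorter settings.

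The labels give no shared source for a replicate number, and 15 of 63 same-numbered pairs had correlated deviations above 0.1 (-0.0844 to 0.455), so the numbers were not taken as pairs. All 3 pairs of MYC and HA in clone B were above it (0.229, 0.274 and 0.398), and 18 of 21 libraries were closest on average to their own number, a hint from the data and not from the design. Libraries of 1 number may thus not be independent, and the exact test counts each once. With the replicate block, calls were 3 at gene ends, 4 in records, and 28 and 2 among regions. Of the values for single genes and regions, 1005 stayed on their side of the threshold without turning over. Some of these moved to or from a difference of 0. A further 21 passed the threshold newly, 12 no longer did and 1, NR6A1, turned over. With 6 libraries against 6 the smallest p was 0.00217. Peak lists hold no depth, so a missing peak may lie under the calling threshold of that library.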
